A study of Schizosaccharomyces pombe with 2 samples.

Results

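The 5S ribosomal RNA genes of fission yeast (Schizosaccharomyces pombe) were taken as all nuclear genes that the RefSeq annotation of assembly ASM294v3 types as rRNA with the product 5S ribosomal RNA. There are 36 of them among 12606 annotated nuclear genes, all with SPRRNA identifiers. Each was asked whether the authors' peak list for Cnd2, the kleisin subunit of the condensin complex, has a summit inside the gene or within 500 bp of it. The peaks came from chromatin immunoprecipitation and sequencing (ChIP-seq) of strain YUK421, which carries Cnd2 fused to an HA tag. The cells grew in EMM with glutamate, were arrested in mitosis with 5 µg/mL thiamine and were fixed with 0.5% formaldehyde for 30 min at 25 °C. The ChIP, made with an anti-HA antibody, and its input are 1 library each and share strain, arrest and fixation. No value therefore has a replicate check, no test across genes was made, and all comparisons are descriptions of this pair of libraries.

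The 5S rRNA is a small RNA of the large ribosomal subunit and the only ribosomal RNA made by RNA polymerase III. Its gene carries its main promoter inside the transcribed sequence. There the zinc finger protein TFIIIA binds, TFIIIC joins it, and TFIIIB is placed upstream and recruits the polymerase. In many eukaryotes the 5S genes form tandem arrays, whereas in fission yeast they are scattered along the chromosome arms as single copies, and RNA polymerase III genes of this yeast commonly have a TATA element upstream. Condensin folds chromosomes for mitosis, and tRNA and 5S genes are known sites of condensin in yeasts.

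The 36 copies were close to a single sequence. The form that recurs most often is 119 bp long, and 23 of the 36 genes (63.9%) contain it without a change. It is shown because every position in the text is counted along it, with its first base as base 1, and SPRRNA.34 (II:2261371-2261489, minus strand) is given as its example. The annotated ends vary far more than the sequence does. Annotated lengths run from 80 to 440 bp, with a median of 150 bp, and 7 genes are annotated at exactly 119 bp. Another 11 genes hold the whole sequence with 1 to 3 base substitutions, and 2 genes, SPRRNA.54 and SPRRNA.41, align to it only with gaps. The most altered copies are shown beside it. Capitals mark substitutions in SPRRNA.12 (I:912230-912348, minus strand) and SPRRNA.37 (II:4161619-4161737, minus strand), and the annotated genes of SPRRNA.54 (II:3096968-3097078, minus strand) and SPRRNA.41 (II:3171566-3171645, minus strand) are given whole, all from RefSeq ASM294v3.
Most frequent 5S sequence: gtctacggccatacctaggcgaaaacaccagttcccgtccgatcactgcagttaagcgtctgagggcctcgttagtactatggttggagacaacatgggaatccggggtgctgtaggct
SPRRNA.12: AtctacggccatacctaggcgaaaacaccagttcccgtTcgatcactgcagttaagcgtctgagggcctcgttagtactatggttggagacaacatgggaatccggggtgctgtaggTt
SPRRNA.37: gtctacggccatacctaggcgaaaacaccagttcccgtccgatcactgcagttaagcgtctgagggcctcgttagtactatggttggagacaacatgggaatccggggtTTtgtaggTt
SPRRNA.54: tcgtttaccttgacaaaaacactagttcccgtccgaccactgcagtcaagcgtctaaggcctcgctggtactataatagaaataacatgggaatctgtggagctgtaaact
SPRRNA.41: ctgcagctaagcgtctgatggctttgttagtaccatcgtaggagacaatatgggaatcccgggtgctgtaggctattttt

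The genes are dispersed, as their label says. Chromosome I carries 12, chromosome II 16 and chromosome III 8, or 2.15, 3.52 and 3.26 per Mb, with 21 on the plus strand and 15 on the minus strand. Neighbouring copies are a median of 214 kb apart. The closest pair, SPRRNA.05 and SPRRNA.06 on chromosome III, starts 11.2 kb apart. None lies inside a centromere, the nearest being 39.5 kb away, and none overlaps another annotated gene.

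Sequencing gave 39685815 ChIP fragments and 60564558 input fragments, and 25933013 and 54272630 remained once repeats of the same fragment had been dropped. The authors' list has 664 peaks on chromosomes I, II and III. It gives for each peak the pileup, which is the number of ChIP fragments over the summit, and the fold enrichment over the local background from the input. The background itself was recovered here from these 2 values, so that a ChIP value and an input-based one stand beside each fold. For it the caller also uses windows of 1000 and 10000 bp, so it need not be the input coverage at the summit.

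Of the 36 genes, 28 (77.8%, exact 95% interval 60.8 to 89.9) had a Cnd2 summit within reach, where 13.2% of all annotated nuclear genes and 15.1% of protein-coding genes did. As genes differ in length, the same count was made for every 119 bp window of the 3 chromosomes, and a summit was within reach of 5.82% of them. The 28 genes fell into distinct kinds. At 22 genes no tRNA gene lay within 500 bp of the summit, and these summits were inside the annotated gene (19 genes) or at most 37 bp outside it. At the other 6 a tRNA gene lay at the same summit, and the summit was 207 to 379 bp from the 5S gene. The farthest summit within reach was thus 379 bp away, at SPRRNA.33, and the nearest one out of reach was 840 bp away, at SPRRNA.30. All 8 genes of chromosome III had a summit in reach, against 8 of 12 on chromosome I and 12 of 16 on chromosome II. Their exact 95% intervals were 63.1 to 100%, 34.9 to 90.1% and 47.6 to 92.7%. These cover counting error only, as genes are not replicates, and the difference between chromosomes was not tested.

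**Figure D1:**
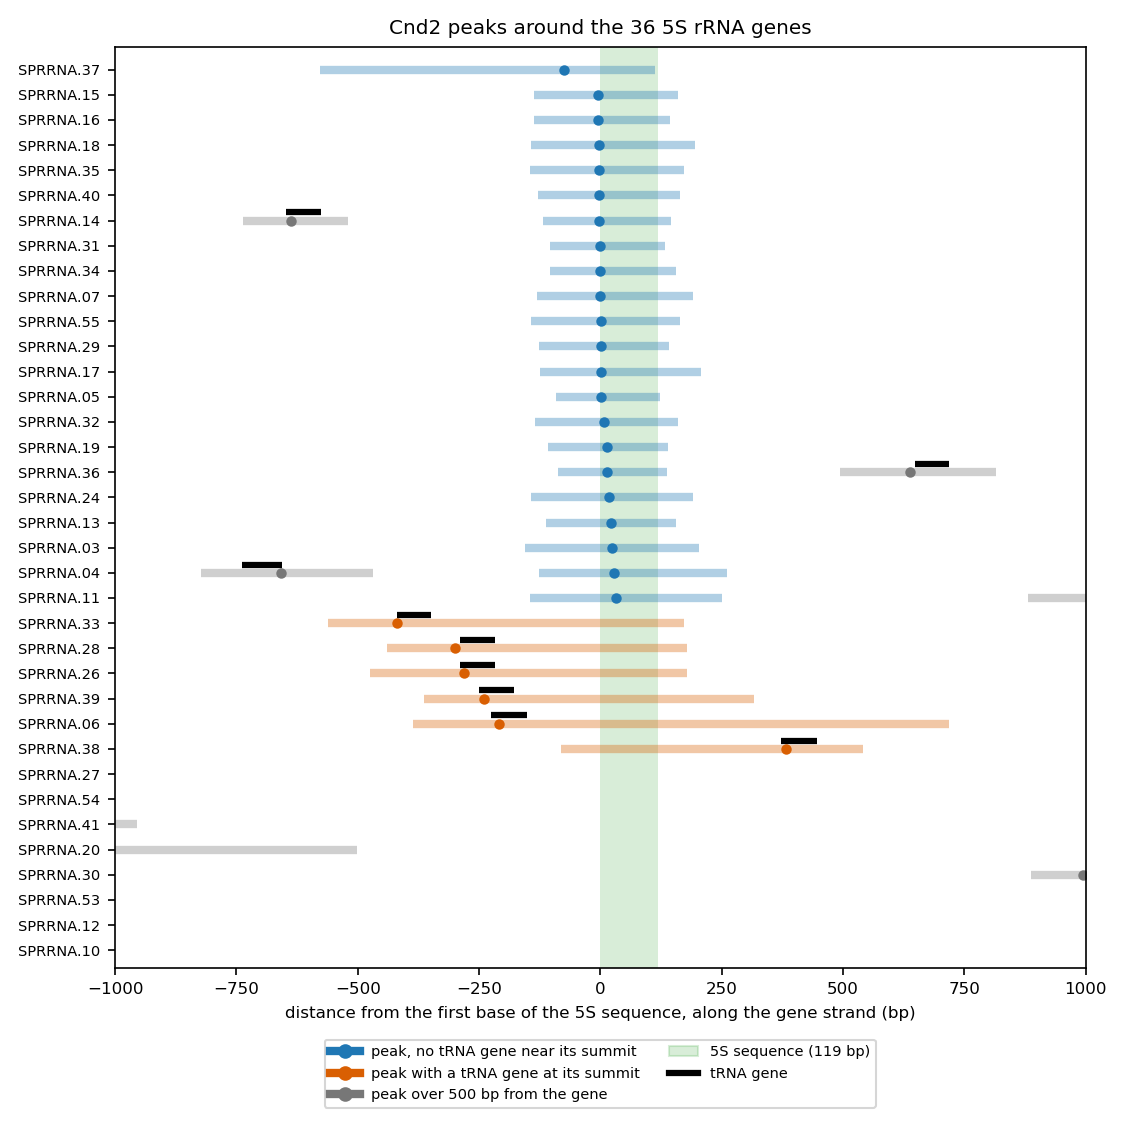
Peak intervals (bars) and summits (dots) around each of the 36 5S genes, drawn along the gene's strand, with distance in bp from the first base of the 5S sequence on the horizontal axis. The shaded band is the 119 bp sequence and black bars are tRNA genes. Summits of 21 of the 22 peaks without a tRNA gene (blue) lie between -5 and 32 bp, while the 6 peaks with a tRNA gene (orange) have their summit on or beside that tRNA gene and still cover the 5S gene. Grey peaks have their summit over 500 bp away.

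At the 22 genes with a peak of their own, Cnd2 summits lay at the first bases of the 5S sequence. Measured along the strand of the gene, 21 of the 22 stood between -5 and 32 bp from the first base, with a median of 1 bp, and 13 of them were within 5 bp of it. Of these 21 summits, 6 lay upstream of the first base, 3 on it and 12 downstream. The exact first base held the summit at SPRRNA.31, SPRRNA.34 and SPRRNA.07. Farthest into the gene were the summits at SPRRNA.11 (32 bp), SPRRNA.04 (29 bp) and SPRRNA.03 (25 bp). The annotated gene ends hide part of this order. Relative to the middle of the annotated gene, the same 22 summits ranged from -146.5 to -12.5 bp, and all 22 lay on the upstream side. Single tRNA genes on the arms, which are of the same polymerase class, showed a like position: over 90 such peaks without a 5S gene the median summit was 0 bp from the first base (quartiles -7 and 3 bp, range -16 to 31 bp), and 58 of them fell in the 5S range of -5 to 32 bp. The deposited values do not show how fragments matching several 5S copies were placed. The fragment length given by the caller, 208 bp, exceeds the 119 bp of the common sequence. SPRRNA.03 and SPRRNA.04, however, are also identical for 138 bp upstream and 23 bp downstream of it. The part that fragments matching several copies had in the summit positions was not tested.

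**Figure D2:**
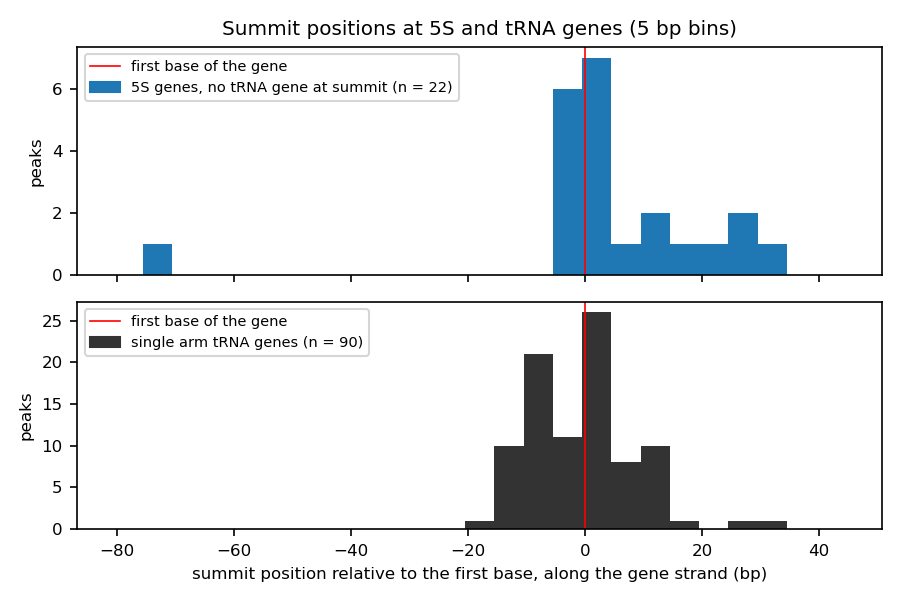
Histograms of summit position in bp relative to the first base of the gene, along its strand, for the 22 5S genes without a tRNA gene at the summit (top) and for 90 single tRNA genes on chromosome arms (bottom); the vertical axes count peaks in 5 bp bins. Both sets pile up at the first base, with medians of 1 and 0 bp, and SPRRNA.37 stands apart at -75 bp.

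SPRRNA.37 was the exception in position. Its summit lay 75 bp upstream of the 5S sequence, in a peak 691 bp wide, whereas the other 21 peaks were 214 to 396 bp wide. The summit was also 257 bp from the 3′ end of sam1, an S-adenosylmethionine synthetase gene. Its pileup was 848 in the ChIP over a background of 452, a fold of 1.87, among the lowest of the 22. SPRRNA.37 is also the only one of the 22 with 3 substitutions.

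Peaks at the 5S genes without a tRNA gene at the summit were mostly narrow and of moderate, even strength. The 22 peaks had a median width of 296.5 bp (quartiles 265.5 and 333.75 bp), against 505 bp over all 611 peaks on chromosome arms and 342 bp at single arm tRNA genes. Their folds ran from 1.73 to 3.05 with a median of 2.27, where all arm peaks ran from 1.11 to 24.4 with a median of 1.73. All 22 exceeded the median of the full list, 1.72. Against the arm median, SPRRNA.05 was just below (1.727 against 1.732) and the others were above.

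The highest fold was at SPRRNA.11, with a pileup of 1179 in the ChIP over a background of 386 and a fold of 3.05. SPRRNA.17 followed with 903 over 339 (2.66-fold). Chromosome III copies came next, SPRRNA.03 with 1098 over 431 (2.54-fold) and SPRRNA.07 with 1511 over 597 (2.53-fold). SPRRNA.15 and SPRRNA.24 both stood at 2.50-fold, with pileups of 817 and 1143. These 6 genes are the upper end, and 3 of them lie on each of chromosomes I and III. The lowest was SPRRNA.05, whose pileup of 1132 was among the taller ones but whose background of 655 was the highest of the 22, for a fold of 1.73 in a peak 214 bp wide. SPRRNA.36 had the lowest pileup, 621 over 331 (1.87-fold). SPRRNA.31 stood at 1.91-fold with 652 over 341, and SPRRNA.19 at 1.95-fold with 668 over 342. The remaining 11 genes formed a continuous series between these ends. In rising order of fold they were SPRRNA.32 (2.07), SPRRNA.14 (2.12), SPRRNA.04 (2.12), SPRRNA.34 (2.13), SPRRNA.29 (2.14), SPRRNA.16 (2.26), SPRRNA.35 (2.28), SPRRNA.18 (2.31), SPRRNA.13 (2.32), SPRRNA.40 (2.37) and SPRRNA.55 (2.41). With 1 library on each side, neighbours in this order cannot be separated by a replicate error.

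Pileup followed the chromosome more than fold did. The 6 such peaks on chromosome III had pileups of 1011 to 1511, above the 8 on chromosome II (621 to 863) without overlap, while the 8 on chromosome I reached from 668 to 1179. The input side moved the same way, with backgrounds of 431 to 655 on III, 307 to 452 on II and 326 to 396 on I. Median folds were 2.46 on III, 2.101 on II and 2.31 on I. Neither the difference in pileup nor that in background is particular to 5S genes. Over all arm peaks the median background was 545 on III, 372 on II and 365 on I. Their median pileup was 1001.5 on III, 664 on II and 675.5 on I.

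**Figure D3:**
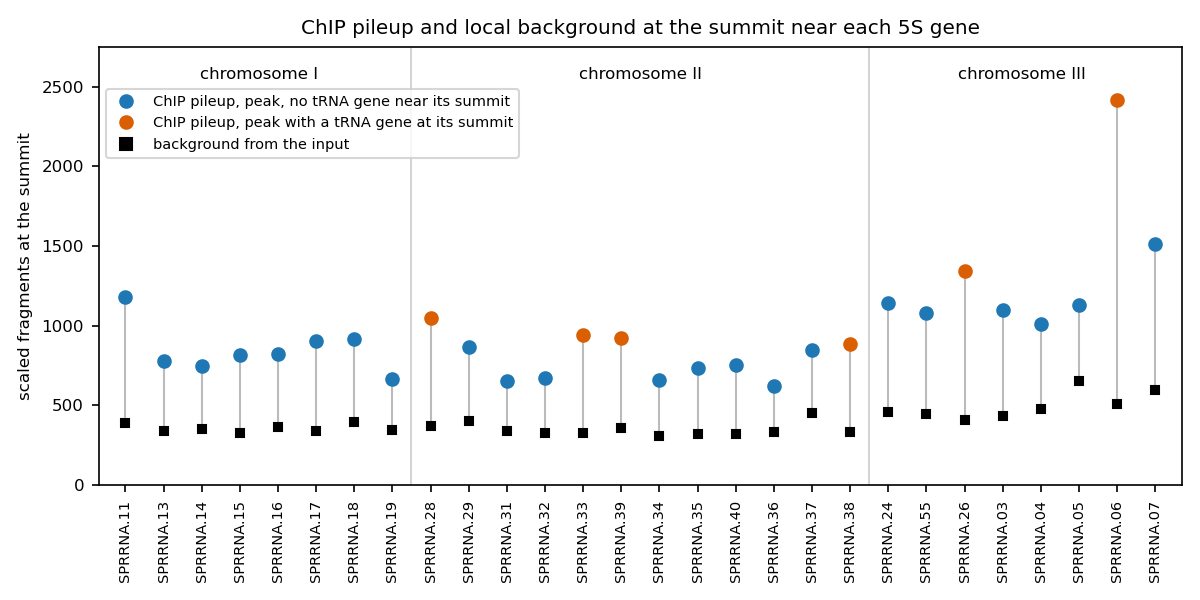
ChIP pileup at the summit (circles) and the caller's local background, recovered from pileup and fold (squares), in fragments on a linear axis from 0. The 28 5S genes with a summit within 500 bp are ordered along the chromosomes. Blue circles have no tRNA gene at the summit and orange circles have one. Pileup and background are mostly higher on chromosome III, and SPRRNA.06, which shares its peak with a tRNA gene, is tallest at 2418.

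At 6 genes the summit belonged to a neighbouring tRNA gene by position. The 5S gene and the tRNA gene were 151 to 308 bp apart, and the summit was 19.5 to 45.5 bp from the middle of the tRNA gene. It lay inside the tRNA gene in all of them except SPRRNA.28, where it was 10 bp outside the histidine gene SPBTRNAHIS.01. In 5 of the 6 the tRNA gene was upstream of the 5S gene, and at SPRRNA.38 it was downstream. Each of these peaks covered the whole annotated 5S gene with a single summit, in intervals 618 to 1107 bp wide, so that a signal of the 5S gene itself cannot be told apart from that of its neighbour in a list of summits.

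These shared peaks were also among the stronger ones at 5S genes. SPRRNA.06, 151 bp from the asparagine gene SPCTRNAASN.06, had a pileup of 2418 over a background of 505 and a fold of 4.78. SPRRNA.26, beside the arginine gene SPCTRNAARG.09, had 1344 over 409 (3.28-fold). The 4 on chromosome II lay closer together. They were SPRRNA.33 beside SPBTRNATHR.06 (942 over 327, 2.87-fold), SPRRNA.28 (1046 over 368, 2.84-fold), SPRRNA.38 beside SPBTRNAASN.04 (882 over 334, 2.64-fold) and SPRRNA.39 beside SPBTRNAASN.02 (924 over 359, 2.57-fold). Their median of 2.86 stood near the 2.81 of single arm tRNA genes and above the 2.27 of 5S genes alone, and the lowest of the 6 exceeded 20 of the 22 folds at 5S genes alone.

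Farther apart, the 5S gene and the tRNA gene had a peak each. SPRRNA.36 was 520 bp from the aspartate gene SPBTRNAASP.04, with 1.87-fold at the 5S gene and 3.18-fold at the tRNA gene. SPRRNA.04 was 607 bp from the lysine gene SPCTRNALYS.12, with 2.12-fold and 2.87-fold. At SPRRNA.14, 534 bp from the threonine gene SPATRNATHR.04, the order was turned, with 2.12-fold at the 5S gene and 2.01-fold at the tRNA gene. SPRRNA.05 was 1057 bp from the methionine gene SPCTRNAMET.07, with 1.73-fold at the 5S gene and a 2.102-fold peak whose summit was 111 bp from the tRNA gene. These loci were chosen for a gap of over 500 bp, so a gap wider than in all 6 cases with a single summit follows from the choice. SPRRNA.30 differed, as the glycine gene SPBTRNAGLY.06 at 851 bp had a 1.84-fold peak and the 5S gene none.

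**Figure D4:**
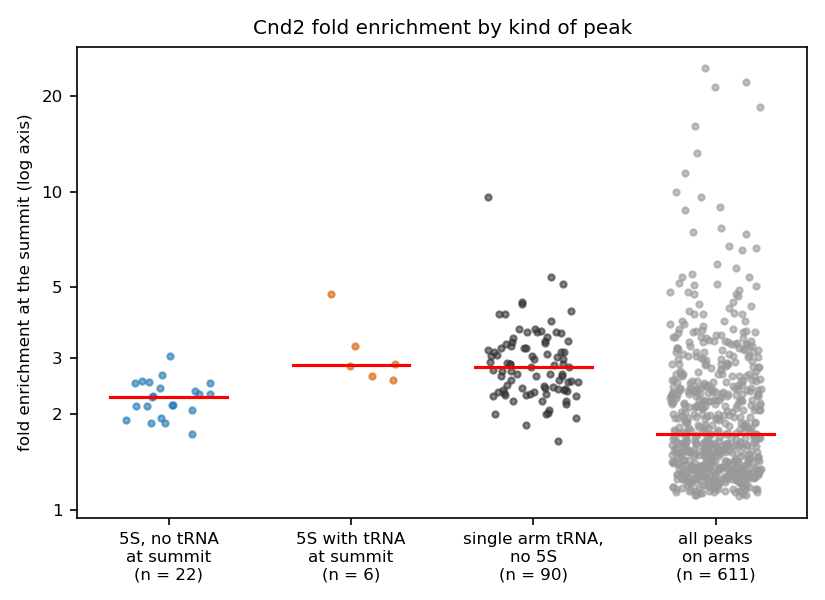
Fold enrichment at the summit (log axis) for peaks at 5S genes without (n = 22) and with (n = 6) a tRNA gene at the summit, for single tRNA genes on arms (n = 90) and for all arm peaks (n = 611); each point is 1 peak and red lines are medians. The 5S peaks without a tRNA gene form a narrow band from 1.73 to 3.05 with a median of 2.27, lower than the tRNA median of 2.81.

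Compared with the single arm tRNA genes, the 5S genes alone had a lower pileup at a similar background. Median pileup was 836.5 against 1002, and median background 358 against 347. The lower 5S median fold held on each chromosome, at 2.31 against 2.51 on I, 2.101 against 2.87 on II and 2.46 against 3.18 on III. The folds of the sets overlap widely, as tRNA peaks ran from 1.65 to 9.62, and no test of the difference was made. A summit was in reach of 110 of 116 arm tRNA genes (94.8%, 89.1 to 98.1) and of 17 of 55 centromeric ones (30.9%, 19.1 to 44.8).

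No summit was in reach of 8 genes: SPRRNA.10, SPRRNA.12, SPRRNA.53 and SPRRNA.20 on chromosome I, and SPRRNA.30, SPRRNA.27, SPRRNA.54 and SPRRNA.41 on chromosome II. No peak interval overlapped them either. The nearest summits were 840 bp (SPRRNA.30), 1210 bp (SPRRNA.20), 1410 bp (SPRRNA.41) and 5836 to 41967 bp away. At SPRRNA.20 the neighbouring summit, at 1.43-fold, was inside dal2, and at SPRRNA.41 it was 110 bp from the 3′ end of dis2, a protein phosphatase gene. Lack of a listed peak does not give an enrichment of 1, as coverage tracks were not analysed here.

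The genes without a peak included the most degenerate copies, but also intact ones. SPRRNA.54 and SPRRNA.41 are the 2 gapped copies, and the best alignment of SPRRNA.54 matched 85 of the 119 bases. With these 2 left out, 28 of 34 full-length copies (82.4%, 65.5 to 93.2) had a summit in reach. Identical copies did so in 20 of 23 cases (87.0%, 66.4 to 97.2), the exceptions being SPRRNA.10, SPRRNA.20 and SPRRNA.27. Copies with substitutions did so in 8 of 11 cases (72.7%, 39.0 to 94.0), and the difference from identical copies was not tested. Several changes occurred on both sides. T12C was carried by SPRRNA.40, which had a peak, and by SPRRNA.30, which had none, and C118T by SPRRNA.11 and SPRRNA.37 with a peak and by SPRRNA.12 without. C20T was found in SPRRNA.11, SPRRNA.04 and SPRRNA.05, all with a peak, and these include both the highest and the lowest fold of the 22. G1A and C39T of SPRRNA.12 and C68T of SPRRNA.53 were seen, among full-length copies, in these genes without a peak alone, 1 gene for each change.

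A TATA-like motif lay shortly upstream of most, but not all, 5S genes. The motifs TATAA and TATATA, which can overlap, were searched in the 250 bases before the 5S sequence of the 34 full-length copies. TATAA was found on either strand in 32 of 34 (94.1%), against 86.0% of tRNA genes, 73.4% of protein-coding genes and 67.6% of all nuclear genes. TATATA was found in 19 of 34 (55.9%), against 50.3% of tRNA genes, 26.7% of protein-coding genes and 22.1% of all nuclear genes. On the gene's own strand, a match of either motif began 40 to 20 bases before the gene in 24 of 34 copies (70.6%), against 55.6% of tRNA genes, 13.5% of protein-coding genes and 10.8% of all genes. A match began at -29 in 17 copies and at -27 in 9, and 8 of the 34 had no match in the 60 bases before the gene. The motif did not divide genes with and without a peak: it was in this window in 15 of 22 genes with their own peak, 5 of 6 with a shared one and 4 of 6 full-length genes without a peak. Annotated starts of other genes are not all transcription starts, which limits the comparison.

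The 60 bases upstream of the gene with the highest fold (SPRRNA.11, I:456467-456526, plus strand), of the gene with the lowest fold (SPRRNA.05, III:1690885-1690944, plus strand) and of SPRRNA.12 (I:912349-912408, minus strand) and SPRRNA.20 (I:4240969-4241028, minus strand), which had no peak, show this range. SPRRNA.19 (I:4184474-4184533, minus strand), which had a 1.95-fold peak, was added after its values were seen because the 20 bases next to the gene are the same as in SPRRNA.20. Capitals mark matches to TATAA or TATATA, each sequence ends at the base before the 5S sequence, and all come from RefSeq ASM294v3.
SPRRNA.11 upstream: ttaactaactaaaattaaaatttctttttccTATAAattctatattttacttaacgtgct
SPRRNA.05 upstream: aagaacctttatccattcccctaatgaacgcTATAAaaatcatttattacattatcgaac
SPRRNA.12 upstream: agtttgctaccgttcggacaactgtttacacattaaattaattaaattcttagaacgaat
SPRRNA.20 upstream: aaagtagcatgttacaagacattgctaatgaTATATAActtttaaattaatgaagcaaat
SPRRNA.19 upstream: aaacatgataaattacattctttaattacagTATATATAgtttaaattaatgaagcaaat

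SPRRNA.11 and SPRRNA.05 thus share the motif at -29 and stand at opposite ends of the fold range. SPRRNA.19 and SPRRNA.20 share both the motif at -29 and an identical 5S sequence, and differ in the list by a called peak. SPRRNA.12 has no match in these 60 bases, and neither have 7 of the 22 genes with their own peak. A run of at least 4 T, the usual end signal of RNA polymerase III, was found in the 50 bases after all 34 copies, against 97.7% of tRNA genes and 47.4% of all genes.

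The B box of tRNA genes, searched as GTTCNANNC on both strands, was in none of the 34 5S sequences, in 94.2% of tRNA genes and in 3.87% of all windows of 119 bp on the 3 chromosomes. With 250 bases on each side included it was found at 5 of the 6 5S genes with a tRNA gene at the summit. It was found at 3 of the 22 genes with their own peak and at 2 of the 6 full-length genes without a peak. Of all windows of the same length, 619 bp, 19.1% held it. The first 6 genes were grouped by a nearby tRNA gene, so their higher count can follow from the grouping. Whether the matches lie in the tRNA genes was not tested.

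Flanking sequence was mostly different between copies. Over the 100 bases upstream, the closest other copy matched at a median of 46 positions. SPRRNA.35 and SPRRNA.40 matched at 69 of these 100 positions, and SPRRNA.28 and SPRRNA.29 were identical over the 29 bases next to the gene. The closest pair was SPRRNA.03 and SPRRNA.04 on chromosome III, identical for 138 bp upstream and 23 bp downstream of the 5S sequence. Their summits lay at 25 and 29 bp, their pileups were 1098 and 1011, and their folds 2.54 and 2.12. Where fragments of this shared stretch were placed cannot be read from the peak list.

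Neighbouring protein-coding genes varied. Of the 36 genes, 22 lay between tandem, 11 between divergent and 3 between convergent coding genes, and 19, 7 and 2 of these had a summit in reach, with exact 95% intervals of 65.1 to 97.1%, 30.8 to 89.1% and 9.43 to 99.2%. The 3′ end of a coding gene was within 500 bp of 13 of the 22 summits without a tRNA gene (59.1%), close to the 68.4% over all arm peaks.

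Genes that make or use the 5S RNA were near a summit about as often as other coding genes. Among 32 protein genes of the pathway, 4 were (12.5%, against 15.1% of protein-coding genes). They were rpc82, a subunit of RNA polymerase III (6.75-fold), rpl1102, for a ribosomal protein that joins the 5S RNA in the large subunit (2.22-fold), tbp1, the TATA-binding protein (1.55-fold), and maf1, the repressor of RNA polymerase III (1.51-fold). Neither sfc2, which encodes TFIIIA, nor any of the 6 TFIIIC subunit genes had a summit within 500 bp, and the same held for the La protein gene sla1. The nearest summit to the TFIIIC gene sfc6, 696 bp away, was that of the 5S gene SPRRNA.34. All 3 other small RNA genes in the list had a summit within 500 bp, where 13.2% of all annotated nuclear genes did. At srp7, the RNA of the signal recognition particle, the summit lay at -1 bp from the first base (3.49-fold), and at snu6, the U6 spliceosomal RNA, at -11 bp (1.96-fold). At rrk1, the RNase P RNA, it was 202 bp past the 3′ end (1.72-fold).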

How the data were processed

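A ChIP library and an input library of mitotic Cnd2-HA cells were compared by the authors. The submitters' processing notes name BWA 0.7.12, MACS2 2.1.0 and build ASM294v2. Per the file headers, MACS 2.1.0.20150731 called peaks on paired-end ChIP fragments relative to input at a q-value limit of 0.05, keeping at most 1 fragment per position, which removed 34.7% of ChIP and 10.4% of input fragments. No pooling is recorded. Pileup is a signal, the ChIP fragment coverage at the summit, per the file headers. Fold is a ratio to the local background, as the authors' caller gave it. The −log10 p-value and −log10 q-value columns are the authors' deposited significance values and served only as filters. Peak values are the authors' and were used within this list only. The header's effective genome size is 1.87e+09, against 12.6 Mb for the 3 chromosomes, which lowers the smallest background the caller allows.

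Background at a summit was recovered as (pileup + 1) / fold - 1, with the caller's pseudocount of 1. Genes and sequences came from RefSeq ASM294v3, which is newer than the build the authors used. No coordinates were converted. As a check, summits stood a median of 36.25 to 40 bp from the middle of single arm tRNA genes on each chromosome. Copies were aligned locally to the most frequent 5S sequence (match 1, mismatch -1, gap opening -3, gap extension -1). As centromere, the widest interval free of protein-coding genes was taken on each chromosome. Intervals of shares are exact (Clopper-Pearson) and cover counting error only. All 36 members may be named, other genes only as neighbours that place a summit or as members of the pathway list near one. Positions along the common 5S sequence were added after seeing the data. The members and lists were chosen with earlier results of these data known. Counting and substitution calls were tested on simulated data. The tools were biopython 1.88, matplotlib 3.10.9, scipy 1.17.1, pandas 2.3.3, numpy 2.4.6 and Python 3.11.15. Peaks off the 3 chromosomes, reads and coverage tracks were not analysed here.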

Additional observations from a re-analysis of the deposited data

How the results depend on the processing

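The number of 5S genes near a summit was 19 with summits inside the annotated gene, 22 within 100 bp, 26 within 250 bp and 29 within 1000 bp. It stayed at 28 when the peak interval had to overlap the gene, among peaks with −log10 q of at least 10, among the upper-fold part of the list (at least its median), and with each background raised to the genome-wide mean where it was lower. That last setting, 429 scaled fragments, lowered the median fold from 2.34 to 2.03 for all 28 peaks and from 2.27 to 1.89 for the 22 without a tRNA gene, because 15 of those 22 had a lower background. Pileup in place of fold gave medians of 892.5 and 836.5 fragments, on another scale. Of 53 values under alternatives, 49 stayed within 1.5 times the reported count or within the binomial interval of the reported median or share. For the share of unchanged copies, this interval (46.2 to 79.2%) served as a tolerance only, as all annotated copies were compared. Use of the common 5S sequence in place of annotated ends, and leaving out the 2 gapped copies, were chosen after seeing the data. No paired analysis was possible because each group is a single library, and for the same reason no library could be left out. Precision is limited by this and by the depth kept after duplicate removal.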
